A study of Arabidopsis thaliana with 12 samples.

Results

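The genes described here encode proteins of the small (40S) subunit of the cytosolic ribosome of Arabidopsis thaliana. The paper counts more different proteins in the eukaryotic 40S subunit than the 23 families listed here. The list therefore does not cover the whole subunit. Of 60 listed loci in 23 protein families, 34 loci in 18 families had a probe set of their own on the ATH1 GeneChip, an array on which a group of short probes reads each transcript. A further 10 loci were matched only by a probe set shared with other genes, and 16 had none in the annotation used. The probe sets of 31 loci in 17 families passed the filter on dim signals, and all 31 passed it in every group of arrays. The other 3, AT5G09500 and AT5G43640 of family S15 and AT2G39590 of family S15a, were dim. Members were chosen by locus and annotation, with no threshold on a measured value, and no locus had more than 1 probe set of its own. RefSeq gives 16 of the 60 loci a symbol beyond the locus code, and 0 of these 16 are among the 34, so the measured copies all come from the loci without a symbol. A gene is called measured here where the annotation gives it a probe set of its own. That annotation pairs 8730 probe sets with no gene, so a gene that was not measured may still have probes on the array. Among the 23 listed families, no measured member was available for Sa, S5, S6, S18, S23 or, after the filter, S15a.

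The 40S subunit binds the mRNA and reads the codons, and it is built in the nucleolus on the precursor of the 18S rRNA. Its proteins fall on the body, the platform and the head of the particle, and many of them join the rRNA while it is still being cut and folded. In Arabidopsis each of these proteins is encoded by several gene copies, so a change in 1 copy need not be a change in the protein.

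SAHY1 is a nucleolar protein, and the arrays compare root transcripts of plants that lack or overexpress it with those of their wild types. The 12 arrays fell into 4 groups of 3, all from roots of 12-d-old plants, which spent 5 d on a basal medium and 7 d on fresh medium. The groups were the sahy1 T-DNA insertion mutant, its wild type Col-0, the SAHY1 overexpression line 4-1 (SAHY1OE) and the wild type of that line, Col-7. The mutant is 1 insertion allele and SAHY1OE is 1 line. The labels do not name the promoter that drives SAHY1 in that line and name no treatment. Both wild types are Columbia lines. The paper describes biological triplicates, and the sources used here give no batch of hybridisation.

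Signals are MAS5 intensities on a linear scale. Brightness differs between probe sets for reasons other than expression, so levels are compared between groups and not between genes. SAHY1 itself had a signal of 71.8 ± 68.2 (SD) in sahy1 and 348 ± 97.0 in Col-0, and 20480 ± 370 in SAHY1OE against 265 ± 16.4 in Col-7 (n = 3 each). The log2 signals of any pair of the 12 arrays correlated with Pearson's r of 0.92 to 0.99 over probe sets. Of 6 listed root hair markers 3 were measured, and all 3 were lower in sahy1 than in Col-0 (limma adjusted p between 1.02e-04 and 9.64e-04). Of all probe sets tested, 7.32% were lower in that comparison. Against Col-7 all 3 were lower as well (limma adjusted p between 4.32e-04 and 0.0234), where 6.69% of all probe sets were. The expansin gene EXPA7 had 331 ± 74.4 in sahy1 and 680 ± 81.5 in Col-0, and the endoglucanase gene GH9C1 had 284 ± 20.3 in sahy1 and 564 ± 24.8 in Col-0 (SD, n = 3 each). A second expansin gene, EXPA18, lay between 291 and 329 in sahy1 and between 651 and 753 in Col-0. Of 7 green shoot markers only the Rubisco activase gene RCA was measured, with 911 ± 87.4 in sahy1, 845 ± 33.4 in Col-0 and 1109 ± 51.0 in Col-7. None of the markers of the dividing root tip (10 listed), xylem (5), endodermis (3) or root as a whole (5) had a probe set of its own in the annotation used. The tissue label was therefore not checked against markers of the root as a whole. The part of these markers in the results on ribosomal proteins was not tested. In whole roots, a changed share of cells of a type and a changed amount of RNA per cell cannot be told apart.

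In sahy1 roots the 31 genes tested lay, as a group, slightly above both wild types, and a few copies lay far above the rest. Against Col-0 the log2 fold change was above 0 for 30 of 31 genes, where 50.1% of all 13834 probe sets tested were above 0. Its median over the 31 genes was 0.29 (1.22-fold), and the median over all probe sets was 0.00. In limma with Benjamini-Hochberg adjustment over all probe sets, 6 of the 31 were higher at an adjusted p under 0.05 and 0 were lower, where 7.7% of all probe sets were higher and 7.32% lower. Before adjustment 17 were higher and 0 lower at the threshold of 0.05, with 14.2% and 13.8% of all probe sets. Of the 6, 2 were also over 2-fold higher (2.37% of all probe sets). The 25 genes that did not pass had log2 fold changes between -0.02 and 0.46, with a median of 0.23. For 18 of the 31 genes every sahy1 array lay above every Col-0 array, where 17.5% of all probe sets did so.

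Against Col-7 the pattern was alike in kind, with the same sahy1 arrays entering both comparisons. All 31 log2 fold changes were above 0 (51% of all probe sets), with a median of 0.24 (1.18-fold). In limma 6 genes were higher at an adjusted p under 0.05 (6.22% of all probe sets), 3 of them over 2-fold (1.34%), and 0 were lower (6.69%). Without adjustment, 11 genes had a p under 0.05, all higher, against 14% of all probe sets in each direction. For 15 genes the sahy1 arrays all lay above the Col-7 arrays (15.6% of all probe sets). The summed signal of the 31 genes was 223786, 210765 and 217982 in the sahy1 arrays, against 175847, 179312 and 195452 in the Col-0 arrays. It was 184926, 196957 and 198075 in the SAHY1OE arrays and 183028, 189171 and 196908 in the Col-7 arrays. The 3 sahy1 sums thus lay above all 9 others, while the sums of SAHY1OE and Col-7 overlapped.

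**Figure D1:**
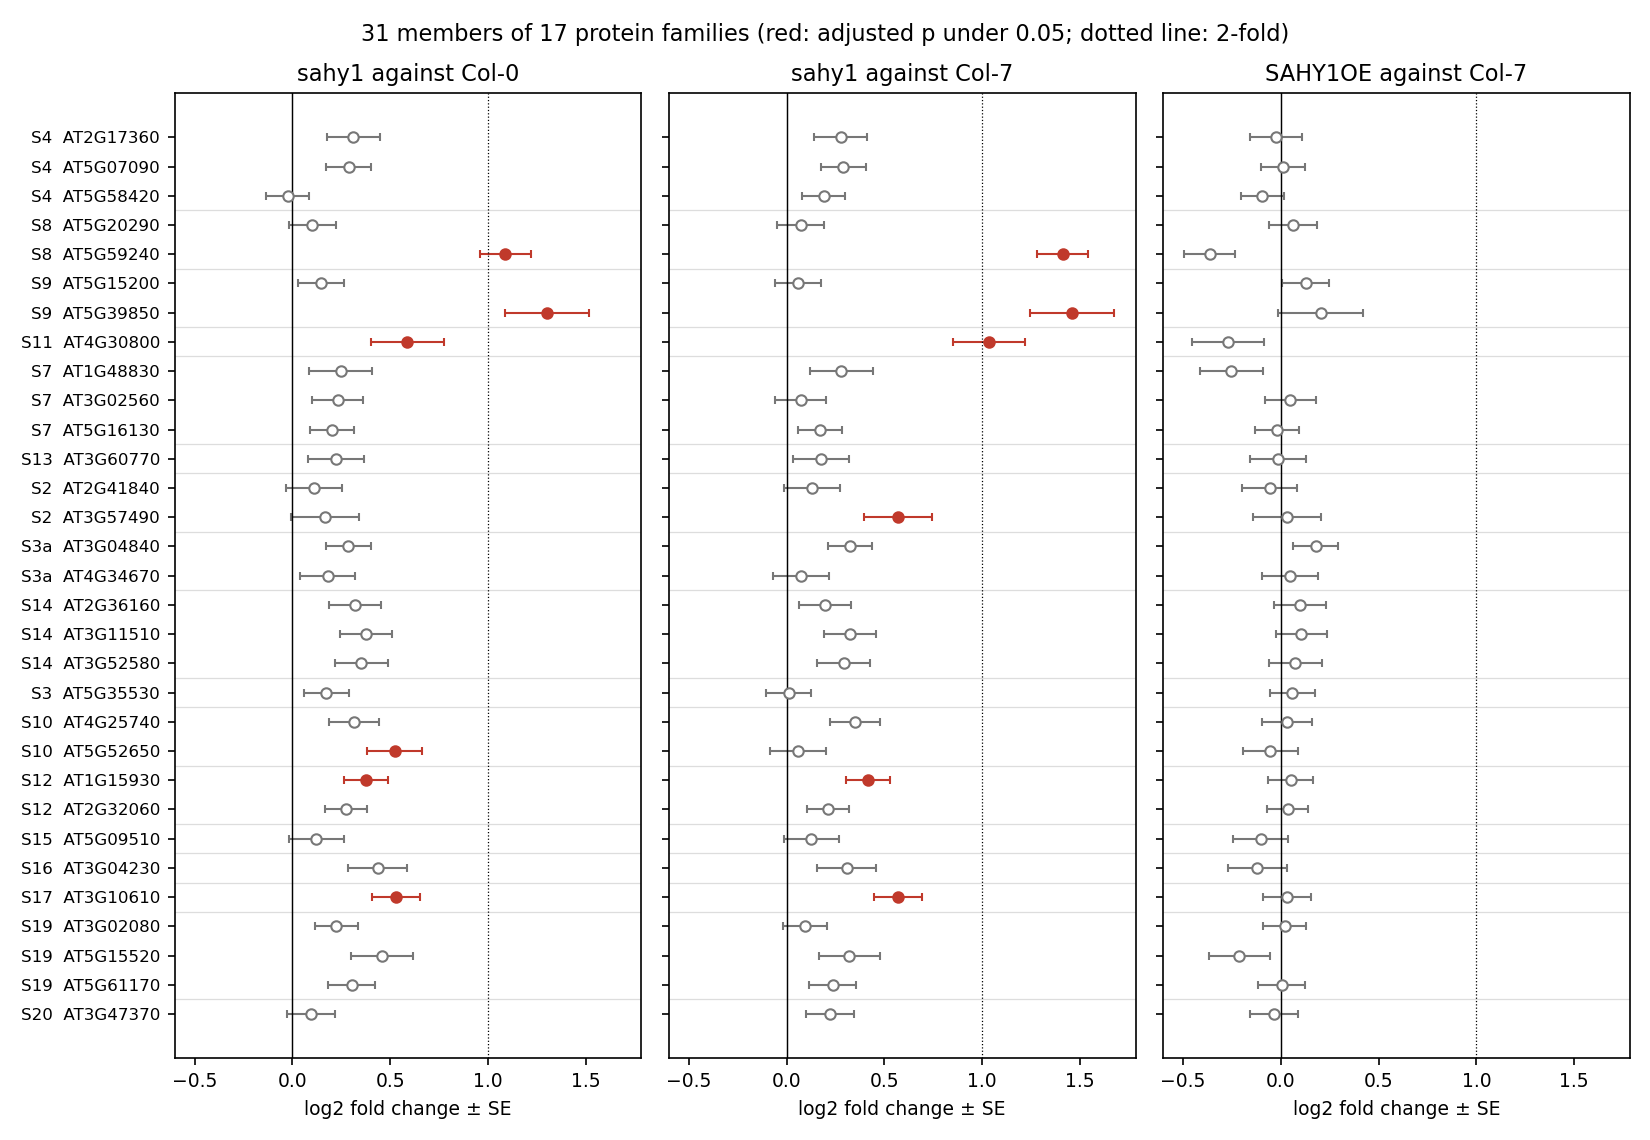
Log2 fold change (x axis, ± standard error of limma) of the 31 genes, by protein family and locus down the page, in sahy1 against Col-0, sahy1 against Col-7 and SAHY1OE against Col-7. Filled red points passed an adjusted p under 0.05, and the dotted line marks 2-fold; 30 of 31 points lie right of 0 in the left panel, and no point is filled in the right panel.

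The copies with the largest fold changes in sahy1 belonged to S8, S9 and S11, described here with other families of the body of the subunit. Families were grouped by position for description, and the part of position in the results was not tested. S8 (eS8) is a protein of the body that joins the rRNA early in assembly. Of its 2 genes, AT5G59240 had signals of 797, 606 and 689 in sahy1, against 355, 315 and 309 in Col-0. It had 182, 216 and 211 in SAHY1OE, against 251, 255 and 276 in Col-7. The lowest sahy1 array was thus well above the highest array of any other group. The gene was 2.13-fold higher in sahy1 than in Col-0 (log2 fold change 1.09 ± 0.13 SE, limma adjusted p = 6.9e-05) and 2.66-fold higher than in Col-7 (1.41 ± 0.13, limma adjusted p = 1.8e-05). The other S8 gene, AT5G20290, gave 18144, 17118 and 16743 in sahy1, against 14155, 16256 and 18255 in Col-0. It gave 16493, 17583 and 17549 in SAHY1OE, against 15393, 17508 and 16587 in Col-7. All 4 groups overlapped for this copy, and its log2 fold change in sahy1 against Col-0 was 0.10, with a 95% confidence interval of -0.16 to 0.36.

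S9 (uS4) lies in the body near the point where the mRNA enters and is among the proteins that bind 18S rRNA early. Its gene AT5G39850 had signals of 1869, 1205 and 1611 in sahy1, against 755, 619 and 519 in Col-0. In SAHY1OE it had 754, 504 and 701, against 722, 507 and 477 in Col-7. Again the sahy1 arrays stood above all others, and the 3 remaining groups overlapped. The gene was 2.46-fold higher in sahy1 than in Col-0 (log2 fold change 1.30 ± 0.22 SE, limma adjusted p = 9.7e-04) and 2.75-fold higher than in Col-7 (1.46 ± 0.22, limma adjusted p = 8.6e-04). Both calls were lost with the unpaired test that the study's methods name, run on the same log2 signals (the methods' unpaired test, adjusted p = 0.0724 against Col-0 and 0.111 against Col-7). For the second S9 gene, AT5G15200, the arrays read 15942, 13753 and 15253 in sahy1 and 12211, 13689 and 14754 in Col-0. They read 15053, 15395 and 16674 in SAHY1OE, all above the Col-7 values of 13488, 14667 and 14998. Its log2 fold change in sahy1 against Col-0 was 0.15 (95% confidence interval -0.11 to 0.40).

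S11 (uS17) is another rRNA-binding protein of the body. One of its 3 genes was measured, AT4G30800, with signals of 1531, 1911 and 1606 in sahy1, against 1261, 1121 and 979 in Col-0. It had 501, 764 and 815 in SAHY1OE, against 937, 698 and 837 in Col-7. All sahy1 arrays lay above all others here too, and the Col-7 arrays lay below the Col-0 arrays. The log2 fold change was 0.59 ± 0.19 SE against Col-0 (limma adjusted p = 0.047) and 1.03 ± 0.19 against Col-7 (limma adjusted p = 0.0033). The call against Col-0 is close to the threshold and was lost in 13 of 21 alternatives (other ways of processing, or an array left out), among them centring each array on its median (adjusted p = 0.0617) and a replicate block, with the replicate number as a term of the fit (adjusted p = 0.0628). The call against Col-7 was lost with the methods' unpaired test (adjusted p = 0.0885).

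The other families grouped here with the body, S4, S7 and S13, had no gene that passed in either comparison of sahy1. The 3 genes of S7 (eS7), a protein needed for early 40S assembly in yeast, had log2 fold changes of 0.20 to 0.25 against Col-0. The S13 (uS15) gene AT3G60770 had 0.22. In S4 (eS4), AT2G17360 was at 0.31 and AT5G07090 at 0.29, while AT5G58420 had the lowest value of the 31 genes, -0.02 (95% confidence interval -0.26 to 0.21). AT5G58420 gave 6361, 5947 and 5982 in sahy1, against 6283, 5671 and 6677 in Col-0, and the Col-7 arrays were lower, at 5498, 5206 and 5320. Its position at the bottom therefore held only against Col-0. Against Col-7 its log2 fold change was 0.19, with the sahy1 arrays all above the Col-7 arrays.

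**Figure D2:**
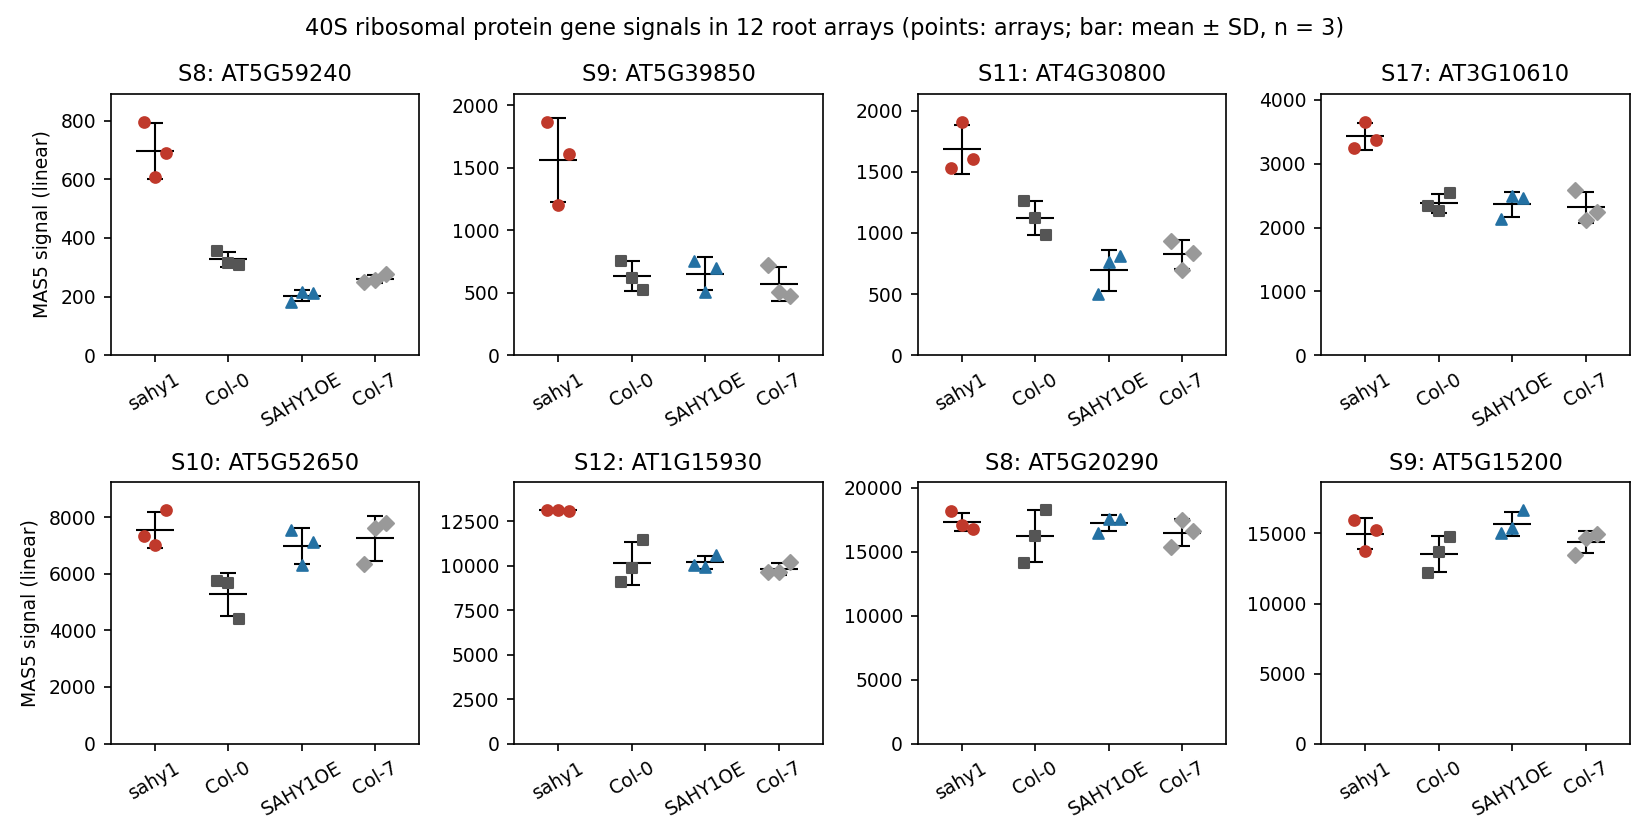
MAS5 signal on a linear axis from 0 (y) by group (x) for the 6 genes that passed in sahy1 against Col-0 and, in the last 2 panels, the second copies of S8 and S9. Points are arrays, and bars give mean ± SD of 3 arrays; the sahy1 arrays of AT5G59240, AT5G39850, AT4G30800, AT3G10610 and AT1G15930 lie above all other arrays, while for AT5G52650 they lie among those of SAHY1OE and Col-7.

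The platform and the mRNA channel are represented by S2, S3a and S14. S2 (uS5) lies at the mRNA entry site. Its gene AT3G57490 had 1248, 864 and 1012 in sahy1, against 1148, 910 and 737 in Col-0. The Col-7 arrays were lower, with 734, 674 and 674, and the SAHY1OE arrays had 620, 765 and 751. The gene passed only against Col-7 (log2 fold change 0.57 ± 0.17 SE, limma adjusted p = 0.045), and against Col-0 its log2 fold change was 0.17 ± 0.17. The call against Col-7 was lost in 11 of 21 alternatives, without sahy1 replicate 1 among them (log2 fold change 0.43, adjusted p = 0.178). The second S2 gene, AT2G41840, had 10082, 11126 and 10198 in sahy1, against 8913, 8869 and 11488 in Col-0. It had 8612, 10708 and 8404 in SAHY1OE, against 9533, 8702 and 10518 in Col-7, so that all groups overlapped.

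S14 (uS11), which lines the mRNA exit side of the platform, had 3 measured copies with similar values. AT2G36160, AT3G11510 and AT3G52580 had log2 fold changes of 0.32, 0.38 and 0.35 in sahy1 against Col-0. None passed, and the lowest adjusted p of limma was 0.0706, for AT3G11510. That gene had 10880, 8724 and 9400 in sahy1, against 6752, 7548 and 7996 in Col-0, so its arrays did not overlap. S3a (eS1), a large protein of the platform, had values of 0.29 for AT3G04840 and 0.18 for AT4G34670, and neither passed.

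In the head of the subunit, S10, S12 and S17 each had 1 gene that passed against Col-0. S17 (eS17) is 1 of the small subunit proteins whose loss of 1 gene copy causes Diamond-Blackfan anaemia in humans. Its gene AT3G10610 gave 3250, 3662 and 3378 in sahy1, against 2335, 2252 and 2549 in Col-0. It gave 2139, 2494 and 2468 in SAHY1OE, against 2582, 2124 and 2239 in Col-7. The sahy1 arrays were above all others and the remaining 3 groups overlapped. AT3G10610 was 1.44-fold higher in sahy1 than in Col-0 (log2 fold change 0.53 ± 0.12 SE, limma adjusted p = 0.0092) and 1.48-fold higher than in Col-7 (0.57 ± 0.12, limma adjusted p = 0.0088). The call against Col-0 was kept in all 21 alternatives, and the call against Col-7 was lost with the methods' unpaired test (adjusted p = 0.104).

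S12 (eS12) sits in the beak of the head. Its gene AT1G15930 had nearly the same signal in the 3 sahy1 arrays, 13101, 13127 and 13090, against 9090, 9873 and 11450 in Col-0. It had 10029, 9944 and 10574 in SAHY1OE, against 9638, 9623 and 10221 in Col-7. The arrays of sahy1 lay above all others. The log2 fold change was 0.38 ± 0.11 SE against Col-0 (limma adjusted p = 0.039) and 0.42 ± 0.11 against Col-7 (limma adjusted p = 0.030). Against Col-0 this call was lost in 12 of 21 alternatives, such as quantile normalization (adjusted p = 0.075) and the fit to those 2 groups alone (adjusted p = 0.0782). Against Col-7 it was lost in 8 of 21, with an adjusted p of up to 0.0815. The second S12 gene, AT2G32060, had 6060, 6332 and 6125 in sahy1, against 5024, 5118 and 5159 in Col-0. It had 5056, 5420 and 5951 in SAHY1OE, against 5372, 5209 and 5419 in Col-7. The sahy1 arrays of this copy also lay above all others, but it did not pass (log2 fold change 0.28 ± 0.11 SE, limma adjusted p = 0.104). Against Col-0 it did pass with the methods' unpaired test (adjusted p = 0.0238) and with a mean-variance trend in limma (adjusted p = 0.0498).

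S10 (eS10), near the beak, gave a different pattern across the wild types. AT5G52650 had 7343, 7003 and 8246 in sahy1, against 5756, 5659 and 4394 in Col-0, and passed (log2 fold change 0.52 ± 0.14 SE, limma adjusted p = 0.023). However, it had 6340, 7603 and 7796 in Col-7 and 7533, 6292 and 7108 in SAHY1OE. The 3 Col-0 arrays were therefore below the other 9, and the sahy1 arrays overlapped those of Col-7 and SAHY1OE. The log2 fold change was 0.06 ± 0.14 in sahy1 against Col-7, and 0.46 ± 0.14 in Col-7 against Col-0 (limma adjusted p = 0.0969). The call against Col-0 was kept in 16 of 21 alternatives. Among the losses were those without Col-0 replicate 3 (adjusted p = 0.102), without sahy1 replicate 3 (adjusted p = 0.0936) and with the methods' unpaired test (adjusted p = 0.136). For the other measured S10 gene, AT4G25740, the arrays read 3084, 2446 and 2856 in sahy1 and 2390, 2297 and 2042 in Col-0. They read 2032, 2323 and 2365 in SAHY1OE and 2277, 2039 and 2248 in Col-7. This copy did not pass against Col-0 (0.31 ± 0.13, limma adjusted p = 0.119) or Col-7 (0.35 ± 0.13, limma adjusted p = 0.0875), although its sahy1 arrays lay above all others.

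The remaining families of the head, S3, S15, S16, S19 and S20, held no gene that passed. S19 (eS19), needed in yeast and humans for the last cuts that free 18S rRNA, had log2 fold changes of 0.46 for AT5G15520, 0.30 for AT5G61170 and 0.22 for AT3G02080 against Col-0. AT5G15520 had 1750, 1473 and 1511 in sahy1, against 1368, 1272 and 861 in Col-0, and its adjusted p was 0.0669 in limma. The S16 (uS9) gene AT3G04230 had a log2 fold change of 0.44 ± 0.15 SE (limma adjusted p = 0.0692), with 1 sahy1 array, at 1298, inside the range of Col-0. AT5G35530 of S3 (uS3), a protein at the mRNA entry, was at 0.17 against Col-0 and at 0.01 against Col-7, the lowest of the 31 genes in that comparison. S15 (uS19), which yeast needs to export the pre-40S particle, was at 0.12 for AT5G09510, and AT3G47370 of S20 (uS10) was at 0.10.

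Within a family, copies of the same protein can be set against each other in each array, which asks whether they moved apart. The log2 ratio of 1 copy over another depends on the brightness of the probe sets, so only its difference between groups was read. The fold changes themselves also differed with brightness, as described below. In S8 a copy with a mean signal of 372 is set against 1 of 16815, and in S9 a copy of 854 against 1 of 14656. The part of brightness in these differences was not tested. In S8, the ratio of AT5G59240 over AT5G20290 was -4.51, -4.82 and -4.60 in sahy1, against -5.32, -5.69 and -5.89 in Col-0, a difference of 0.99. In S9, the ratio of AT5G39850 over AT5G15200 was -3.09, -3.51 and -3.24 in sahy1, against -4.02, -4.47 and -4.83 in Col-0, a difference of 1.15. In both families the arrays did not overlap, and the same held for 2 pairs of S4, AT2G17360 over AT5G58420 (difference 0.34) and AT5G07090 over AT5G58420 (0.31). The exact two-sided permutation p was 0.1 for each of these 4 pairs, the smallest that 3 arrays against 3 can give, and their adjusted p over 72 tests (18 pairs in 10 families, 4 comparisons) was 0.48. The 16 pairs of the other 8 families differed between sahy1 and Col-0 by -0.21 to 0.34, the upper end set by the S4 pair AT2G17360 over AT5G58420 and the lower end by the S10 pair AT4G25740 over AT5G52650.

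Against Col-7 the ratio was higher in sahy1 by 1.34 in S8 and by 1.40 in S9. The S8 ratio was -6.50, -6.35 and -6.38 in SAHY1OE, against -5.94, -6.10 and -5.91 in Col-7, and the arrays of those groups did not overlap (difference -0.43, exact permutation p = 0.1). For S9 the ratios of SAHY1OE and Col-7 overlapped (difference 0.08, exact permutation p = 0.9). The other pair whose SAHY1OE and Col-7 arrays did not overlap was AT5G15520 over AT3G02080 of S19 (difference -0.23, exact permutation p = 0.1). The order of the mean S8 ratio was thus sahy1, Col-0, Col-7 and SAHY1OE, highest first, with no overlap between neighbours. The step from Col-0 to Col-7 (difference -0.35) lies between wild types, where SAHY1 is not altered by design. It was close in size to the step from Col-7 to SAHY1OE (-0.43). Whether the order follows the level of SAHY1 was not tested. In 4 further pairs the arrays of sahy1 and Col-7 did not overlap, each with an exact permutation p of 0.1. The ratio was higher in sahy1 for AT3G57490 over AT2G41840 of S2 (difference 0.44), AT5G61170 over AT3G02080 of S19 (0.14) and AT5G07090 over AT5G58420 of S4 (0.10), and lower for AT2G32060 over AT1G15930 of S12 (-0.21). Some pairs also did not overlap between the wild types, each with an exact permutation p of 0.1. In Col-7 against Col-0 these were the S8 pair (-0.35), AT4G25740 over AT5G52650 of S10 (-0.50) and AT5G07090 over AT5G58420 of S4 (0.21). Ratios of other gene families were not computed, so no share stands beside these pairs.

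**Figure D3:**
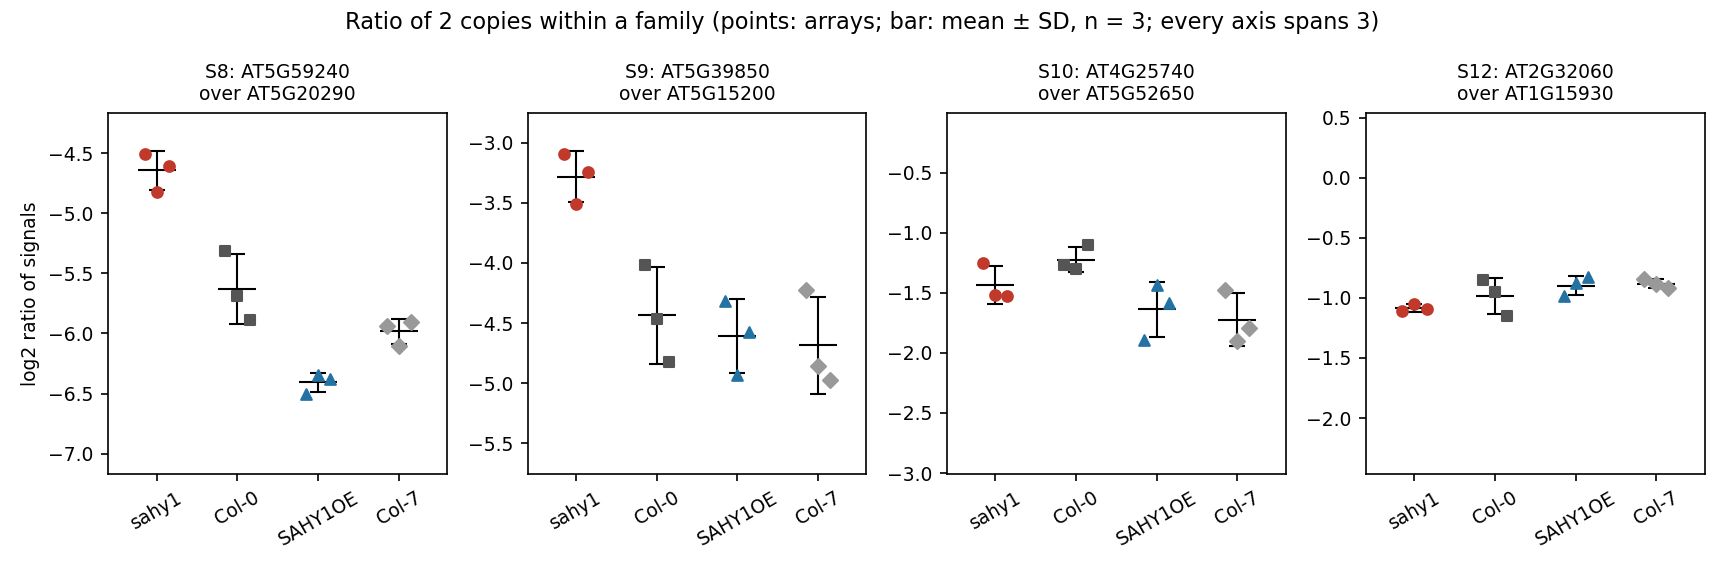
Log2 ratio of the signals of 2 copies (y axis) by group (x axis) in the families S8, S9, S10 and S12, with a point for each array and bars for mean ± SD of 3 arrays. Every axis spans the same range; the ratio in sahy1 lies above all other groups in S8 and S9, and the groups lie closer together in S10 and S12.

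The size of the change differed with the brightness of the probe set. Over the 31 genes, mean log2 signal and log2 fold change in sahy1 against Col-0 had a Pearson's r of -0.67 (Spearman's rho -0.49). Without AT5G59240 and AT5G39850, Pearson's r was -0.42 (n = 29). Against Col-7, Pearson's r was -0.79 and, without those 2 genes, -0.68. The genes share the same arrays, and the sahy1 signals enter both axes, so these values are descriptions. In SAHY1OE against Col-7, Pearson's r was 0.52, and in Col-7 against Col-0, where SAHY1 is not altered by design, it was 0.58 (0.47 without those 2 genes). By bands set after the values were seen, the 7 genes with a mean signal under 2000 had log2 fold changes of 0.12 to 1.30 against Col-0, with a median of 0.46. The 3 genes between 2000 and 5000 had 0.31 to 0.53. The 21 brighter genes had -0.02 to 0.52, with a median of 0.23. The low band held AT5G59240, AT5G39850, AT4G30800, AT3G57490, AT5G15520, AT3G04230 and AT5G09510.

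**Figure D4:**
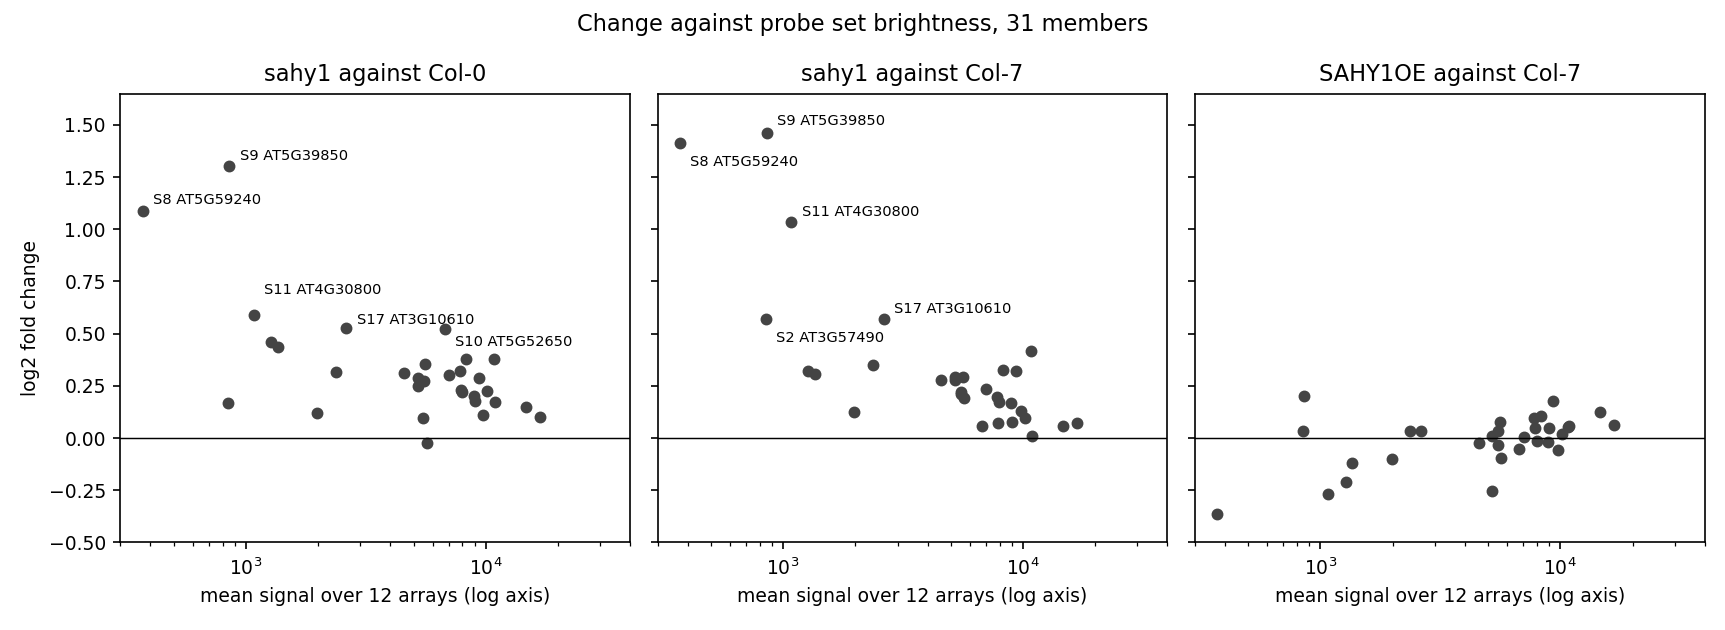
Log2 fold change (y axis) against mean signal over the 12 arrays (x axis, log scale) for the 31 genes in sahy1 against Col-0, sahy1 against Col-7 and SAHY1OE against Col-7, with genes beyond 0.5 named. The largest changes in sahy1 lie at the dim end; in SAHY1OE the dim genes spread from -0.36 for AT5G59240 to 0.20 for AT5G39850.

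In SAHY1OE roots none of the 31 genes passed, higher or lower, against Col-7 in limma, in a comparison in which 0.0217% of all probe sets were higher and 0.00723% lower. Without adjustment 0 were higher and 1 was lower at the threshold of 0.05, where 2.1% and 2.61% of all probe sets were, and the methods' unpaired test also called 0. Of the log2 fold changes 18 were above 0 (49.3% of all probe sets) and 13 below, between -0.36 and 0.20, with a median of 0.02. The lowest was AT5G59240 at -0.36 ± 0.13 SE (limma unadjusted p = 0.0148, adjusted p = 1), and its SAHY1OE arrays all lay below the Col-7 arrays. The next lowest were AT4G30800 of S11 (-0.27), AT1G48830 of S7 (-0.25), AT5G15520 of S19 (-0.21) and AT3G04230 of S16 (-0.12). The highest were AT5G39850 of S9 (0.20), AT3G04840 of S3a (0.18), AT5G15200 of S9 (0.13), AT3G11510 (0.10) and AT2G36160 (0.10) of S14. For 1 gene all SAHY1OE arrays lay above Col-7 and for 3 all lay below (4.01% and 4.73% of all probe sets).

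Whether loss and overexpression of SAHY1 differed in their effect was tested by the contrast of sahy1 minus Col-0 with SAHY1OE minus Col-7. It was above 0 for all 31 genes (50.5% of all probe sets), with a median of 0.24 on the log2 scale (0.00 over all probe sets). Before adjustment 8 genes were higher and 0 lower at the threshold of 0.05, with 10% and 9.1% of all probe sets. After adjustment 2 genes passed (3.42% of all probe sets were higher and 2.91% lower), both over 2-fold (2.18%). The 2 genes were AT5G59240, with a difference of 1.45 ± 0.18 SE (limma adjusted p = 3.1e-04), and AT5G39850, with 1.10 ± 0.30 (limma adjusted p = 0.049). The call of AT5G39850 was lost in 9 of 19 alternatives, the highest adjusted p being 0.186 with no filter. AT4G30800 followed with 0.86 ± 0.26 (limma adjusted p = 0.0715).

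Between the wild types, none of the 31 genes passed in Col-7 against Col-0 in limma, where 2.57% of all probe sets were higher and 1.66% lower. Before adjustment 1 gene was higher and 3 were lower at the threshold of 0.05 (7.63% of all probe sets in each direction), and a mean-variance trend in limma called 1 gene, AT5G52650. The log2 fold changes ran from -0.45 to 0.46 with a median of 0.03, and 17 were above 0 (48.4% of all probe sets). The lowest were AT4G30800 (-0.45), AT3G57490 (-0.40), AT5G59240 (-0.32), AT5G58420 (-0.21) and AT5G39850 (-0.16). The highest were AT5G52650 (0.46), AT5G35530 (0.16), AT3G02560 (0.16), AT5G15520 (0.14) and AT3G02080 (0.13). For 2 genes every Col-7 array lay above every Col-0 array and for 4 every one lay below, where 10.5% and 10.4% of all probe sets did so.

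Factors that assemble the 40S subunit and cut its rRNA were set beside its proteins. Of 33 listed, 12 were measured, and their log2 fold changes in sahy1 against Col-0 were all above 0 (50.1% of all probe sets), with a median of 0.32. Of these, 2 were higher in limma (7.7% of all probe sets) and 0 lower (7.32%). MPP10, a component of the small subunit processome, averaged 346 ± 18.8 in sahy1, against 199 ± 33.2 in Col-0 (n = 3 arrays each, ± SD), with a log2 fold change of 0.81 (adjusted p = 0.0102 in limma). BMS1, a GTPase of the same complex, averaged 443 ± 38.9 in sahy1, against 321 ± 30.1 in Col-0, with a log2 fold change of 0.47 (adjusted p = 0.0174 in limma). The lowest of the 12 was the kinase gene RIO2, at 0.01.

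Against Col-7, 3 of the 12 factors were higher in sahy1 (6.22% of all probe sets) and 0 lower (6.69%), and 10 were above 0 (51%), with a median of 0.31. The 3 were YAO (log2 fold change 0.88, limma adjusted p = 0.00694), UTP21 (0.64, limma adjusted p = 0.0115) and RRP7 (0.79, limma adjusted p = 0.0137). None of the 12 passed against both wild types. MPP10 was at 0.41 (limma adjusted p = 0.177) and BMS1 at 0.17 (limma adjusted p = 0.396) against Col-7. Against Col-0, YAO was at 0.55 (limma adjusted p = 0.0574) and UTP21 at 0.35 (limma adjusted p = 0.131). RRP7 was also lower in Col-7 roots than in roots of Col-0 (-0.78, limma adjusted p = 0.0263) and was at 0.01 in sahy1 against Col-0. The lowest was the dimethylase gene DIM1A, at -0.20. None of the 12 passed in SAHY1OE against Col-7, where their median was -0.07. In the difference of effects BMS1 alone passed (0.76, limma adjusted p = 0.0164), where 3.42% of all probe sets were higher. Of 6 genes of the S6 kinase and its partners, none had a probe set of its own in the annotation used.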

How the data were processed

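Total RNA of roots was hybridised to 12 ATH1 arrays. The authors deposited MAS5 signal intensities on a linear scale, with arrays brought to a common trimmed mean of 500, and their description names GeneSpring GX 10.0.1. The sources used here give no version of MAS5. Array medians lay between 192 and 204. For arrays, their number, 3 per group, limits the precision.

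Of 22810 probe sets 64 controls were left out, signals under 1 (46 to 334 per array) were set to 1, and log2 was taken. In 1 or more groups, every array had to reach its own 40th percentile (110 to 122) for a probe set to be kept, and 13834 of 22746 were. A model of group means over all 12 arrays was run in limma 3.58.1 (R 4.3.3, eBayes, Benjamini-Hochberg over all probe sets). Copy ratios were compared with exact two-sided permutation tests. The scripts were checked on simulated data. The figures used matplotlib 3.10.9 and pandas 2.3.3 in Python 3.11.15.

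A probe set was assigned to a locus where the platform table pairs it with that gene alone (13513 probe sets, with 503 pairing with several genes and 8730 with none). Families were assigned to loci by hand from the standard nomenclature of Arabidopsis ribosomal proteins. The members and lists were chosen with earlier results of these data known. Named with the value in every array were genes at an adjusted p under 0.05 in any of the 4 comparisons of groups and the other measured copies of their families. Further named were the 5 highest and 5 lowest genes of each comparison and the highest and lowest copy of each family. Array values of AT5G58420, AT3G11510 and AT5G15520 were added after they were seen. Alternatives were quantile normalization, median centring, log2 after adding 32, no filter, a 60th percentile filter, a trend in eBayes, fits to 2 groups, the methods' unpaired test, a replicate block and leaving out each array. Detection calls, raw images and a genome were not used here.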

Additional observations from a re-analysis of the deposited data

Results flagged for a closer look

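The effects of losing and of overexpressing SAHY1 differed for 2 genes of the small subunit in the limma contrast of both effects. For AT5G59240 of S8 the difference was 1.45 on the log2 scale, made up of 1.09 in sahy1 against Col-0 and -0.36 in SAHY1OE against Col-7. It passed in 19 of 19 alternatives, with adjusted p between 6.78e-05 and 0.00583. For AT5G39850 of S9 the difference was 1.10, made up of 1.30 in sahy1 against Col-0 and 0.20 in SAHY1OE against Col-7. It passed in 10 of 19 alternatives, with adjusted p between 0.00957 and 0.186. Neither gene passed in SAHY1OE against Col-7 by itself.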

How the results depend on the processing

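For 37 results, each under 9 to 22 alternatives, no called direction was reversed. Many alternatives could not reverse one. The filters, the trend, the block, fits to 2 groups and the methods' unpaired test left the log2 fold changes unchanged. So did leaving out an array of a group outside the comparison. Of the 723 values, 633 were counted as unchanged. These moved no gene across its threshold, no count by over 1.5 times and no median by over 1 SD. For copy ratios only the sign of the difference had to stay. Such counts could still lose or gain genes. The 633 include medians that could not move and counts of 0 that stayed 0. In sahy1 against Col-0, the count of 6 genes became 3 with no filter and 12 with a mean-variance trend. With the methods' unpaired test it became 3, namely AT5G59240, AT3G10610 and a gene gained, AT2G32060. That test called 664 of all 13834 probe sets, where limma called 2077. Leaving out single arrays gave 3 to 6 genes, with 3 without sahy1 replicate 1 or without sahy1 replicate 3. The count over 2-fold, 2, became 1 with the methods' unpaired test and 1 without sahy1 replicate 1 (range 1 to 2). The median log2 fold change lay between 0.26 and 0.31 over omitted arrays. It was 0.241 with quantile normalization and 0.255 with median centring. Without AT5G59240 and AT5G39850, an alternative chosen after seeing the data, the median was 0.28 and 4 genes passed. In sahy1 against Col-7, the methods' unpaired test called 2 of the 6 genes and 1 of the 3 over 2-fold. Over all probe sets it called 89, where limma called 1786. Omitted arrays gave 4 to 8 genes, and 2 to 3 over 2-fold. In Col-7 against Col-0, a trend called 1 gene, and the median, 0.03, ranged over omitted arrays between -0.0111, without Col-7 replicate 3, and 0.0634. In the difference of effects, both counts of 2 became 1 with no filter, and omitted arrays gave 1 to 3 genes, and 1 to 2 over 2-fold. The cause of these moves was not tested, except that the methods' unpaired test uses 2 groups alone and that omitted arrays leave fewer samples.

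Same-numbered arrays deviated together with r between -0.10 and 0.24, and 7 of 12 correlated best with their own number. Each array had fewer same-numbered than differently numbered arrays to match. These values therefore do not settle whether same-numbered arrays belong together. The main fit did not take the numbers as pairs, and a block on them was run as an alternative. With a replicate block, 6 genes again passed against each wild type. Against Col-0, AT4G30800 lost its call (adjusted p = 0.0628) and AT3G04230 gained one (adjusted p = 0.0455). Over all probe sets the block gave 2193 calls in sahy1 against Col-0 (2077 without it) and 1938 in sahy1 against Col-7 (1786). It gave 629 in Col-7 against Col-0 (584), 932 in the difference of effects (876) and 3 in SAHY1OE against Col-7 (4). Fits without an array treat a group of 2 like the others. The choice of the lowest-mean probe set was not run, since no locus had more than 1 of its own, and fits to 2 groups and the methods' unpaired test cannot give the difference of effects. Dim signals limit AT5G09500, AT5G43640 and AT2G39590.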

Other observations

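The 3 dim genes were left out of the counts. AT5G09500, 1 of the S15 genes, had 84.2, 109 and 72.0 in sahy1, against 45.7, 33.6 and 35.3 in Col-0, and 110, 49.7 and 49.8 in SAHY1OE, against 52.9, 50.4 and 59.4 in Col-7. Its log2 fold change in sahy1 against Col-0 was 1.20 with no filter on dim signals (limma adjusted p = 0.0513). AT5G43640 of S15 had 21.2 ± 5.14 in sahy1 and 11.7 ± 13.2 in Col-0, and AT2G39590 of S15a had 12.8 ± 8.97 in sahy1 and 10.8 ± 8.67 in Col-0 (SD, n = 3 each), below the level at which signals were kept.

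Probe sets that several small subunit genes share cannot tell the copies apart. For S3, the probe set of AT2G31610 and AT3G53870 had 8209 ± 765 in sahy1, 7731 ± 1267 in Col-0 and 6072 ± 476 in Col-7 (SD, n = 3 each). It was higher in sahy1 than in Col-7 (log2 fold change 0.43, limma adjusted p = 0.0484), and its log2 fold change against Col-0 was 0.09. For S2, the probe set shared by AT1G58380, AT1G58684, AT1G58983 and AT1G59359 was higher in sahy1 than in Col-7 (0.34, limma adjusted p = 0.0479), and had 0.27 against Col-0 (limma adjusted p = 0.103). In sahy1 against Col-0, the shared probe sets of S20 (0.33), S17 (0.28), S16 (0.19) and S23 (0.16) did not pass. A shared S15 probe set, of AT1G33850 and AT5G43640, had means under 5 in every group.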
